A study of Mus musculus with 4 samples.

Results

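Complexes II to V are the complexes of the mitochondrial respiratory chain other than complex I, together with the ATP synthase. Complex II (succinate dehydrogenase) passes electrons from succinate to ubiquinone, complex III passes them on to cytochrome c, complex IV (cytochrome c oxidase) passes them to oxygen, and complex V (ATP synthase) uses the proton gradient that complexes III and IV help to build. Osteoclasts, the cells that resorb bone, are rich in mitochondria, and their formation under RANKL goes with a rise in respiratory capacity. Downstream of RANK, the RANKL receptor, the factor NFATc1 switches on the genes of osteoclast differentiation.

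The genes described here were taken by symbol from the platform annotation: all probe sets with a single gene symbol starting with Sdh, Uqcr, Cox4, Cox5, Cox6, Cox7, Cox8 or Atp5, without the Sdhaf assembly factors, and Cyc1, Cycs and Chchd10. They came to 88 of 22690 probe sets and 48 of 12394 genes. There were 4 genes for complex II, 9 for complex III, 16 for complex IV and 17 for complex V, plus cytochrome c itself (Cycs) and Chchd10. Chchd10 is a protein of the intermembrane space and not a subunit of any complex, and Cox7a2l is a factor that links complexes into supercomplexes. The subunits encoded by mitochondrial DNA are outside this choice.

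The series held 4 arrays of RNA from C57BL/6 osteoclast cultures, 2 per genotype. In both genotypes the Nfatc1 alleles were floxed (NFATc1 fl/fl). The wild-type cultures came from MxCre- mice, and the NFATc1-deficient cultures from MxCre+ mice, in which poly I:C treatment switches on a Cre recombinase under the interferon-responsive Mx promoter. Precursors sorted from marrow (CD11b-, CD3e-, B220-, c-Kit+ and c-Fms+) grew for 3 days with M-CSF and RANKL. Each array stood for a pool of mice, 3 for replicate 1 and 4 for replicate 2. The age of the mice, the exons removed and the poly I:C status of the wild-type mice are not given in the sources used here.

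Nfatc1 signal itself was lower but not lost. The brighter Nfatc1 probe set read 5434 and 6147 on the wild-type arrays and 3018 and 4098 on the deficient arrays, a log2 change of -0.71 (SE 0.15, adjusted p = 0.0104). All 9 measured osteoclast markers were lower, and their summed signal was 49349 and 55508 in wild-type and 22016 and 29772 in deficient cultures. Acp5 and Ctsk, an acid phosphatase and a collagen-cutting protease of osteoclasts, were bright in both genotypes, while Calcr (761 and 718 in wild-type) and Itgb3 (611 and 495) read 17.0 and 41.6, and 4.6 and 10.2, in deficient cultures. Of 11 granulocyte markers 3 rose, and their summed signal was 7184 and 7279 against 17785 and 8664. The 7 macrophage markers summed to 22955 and 26890 against 18872 and 18817, with 2 lower and 1 higher. Of the 7 lymphoid markers, Cd3e, Cd3d, Cd79a, Cd79b, Ebf1 and Pax5 read at or under 61.95 on all arrays, the level below which probe sets were not tested. The osteoclast, macrophage and granulocyte sums differed by genotype, the granulocyte sum mostly through NFATc1-deficient replicate 1. The lymphoid sums overlapped, at 416 and 276 in wild-type and 390 and 323 in deficient cultures. The part of these markers in the results below was not tested. The arrays measure whole cultures, so fewer cells of a type and less RNA per cell cannot be told apart. The Y-linked gene Eif2s3y read 14.4 and 6.5 on the replicate 1 arrays and 1147 and 1050 on the replicate 2 arrays, so pools with the same number were alike in sex across genotypes, and the numbers differed in sex.

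Genes of complexes II to V fell in NFATc1-deficient cultures in every complex, and none passed the test as higher. Of the 46 genes with a probe set bright enough to test, 25 were lower at an adjusted p under 0.05, 0 were higher and 21 did not pass (limma, Benjamini-Hochberg over all 13577 probe sets tested). Over all 7798 genes tested the share called lower was 11.9% and the share called higher 12.9%. Among members with a mean signal over 2000, 24 of 41 were lower, where 19% of all genes that bright were called lower and 17.5% higher. The median log2 change of the 46 genes was -0.40, which left a median of 75.6% of the wild-type signal, and that of all genes tested was 0.03. Both deficient arrays lay below both wild-type arrays for 39 of the 46 genes, against 29.7% of all genes tested, and for 0 genes did both lie above, against 34.3% of all genes tested. Wild-type replicate 2 read above wild-type replicate 1 for 40 of the 46 genes, against 3342 of all 7798 genes. Taken by replicate number, the median difference was -0.34 for replicate 1 and -0.52 for replicate 2. Without NFATc1-deficient replicate 1 the count of lower genes was 16, without wild-type replicate 1 it was 39, and with each array scaled to its own median it was 15. Each array was also scaled to transcripts added in fixed amounts before hybridisation. The median of all genes then shifted to -0.25 and that of these genes to -0.70. Their distance from all genes was -0.45 in place of -0.43. This distance could hardly have moved, since 1 factor per array shifts all log2 changes nearly alike. Under that scaling 1134 of all genes were called lower and 177 higher, in place of 931 and 1005.

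**Figure D1:**
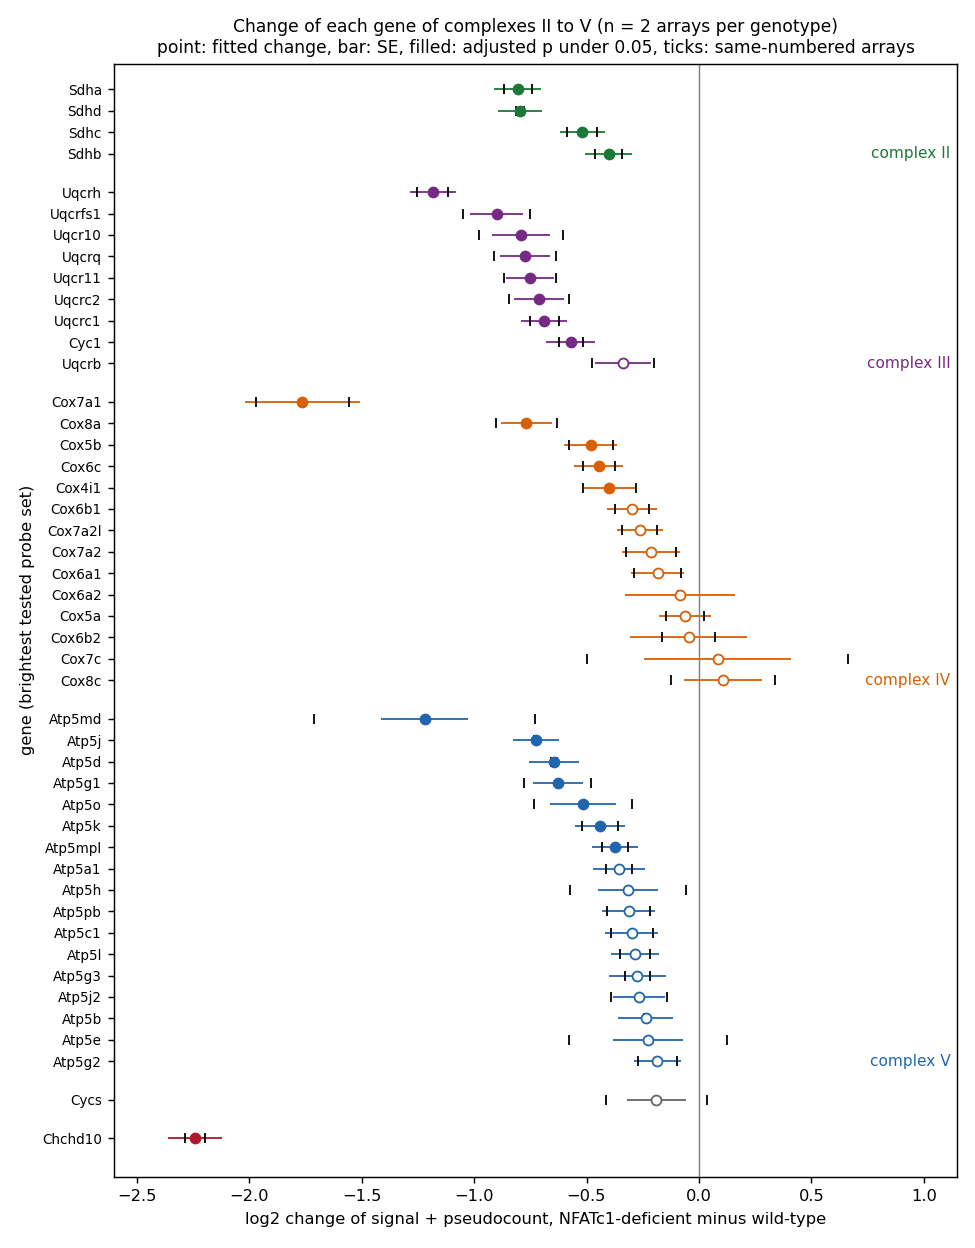
Log2 change of each gene between NFATc1-deficient and wild-type cultures at its brightest tested probe set (x axis, log2 of signal + 23.3), by complex (y axis, genes). Points are fitted changes with SE from 2 arrays per genotype, filled where the adjusted p was under 0.05, and black ticks are the differences between same-numbered arrays. Of the 46 points 44 lie below 0, and Chchd10 at -2.24 and Cox7a1 at -1.76 lie farthest out.

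The share of genes that passed ran from all of complex II to under the overall 54.3% in complexes IV and V. In complex II all 4 genes fell, with a median change of -0.66, and in complex III 8 of 9 fell, with a median of -0.75. In complex IV 5 of 14 tested genes fell, with a median of -0.24, and in complex V 7 of 17 fell, with a median of -0.32. With replicate number, which carries pool sex and size, as a block in the fit, 4 of 4, 9 of 9, 6 of 14 and 11 of 17 genes were lower in complexes II to V. The genes added were Uqcrb, Cox6b1, Atp5a1, Atp5c1, Atp5l and Atp5pb, which did not pass without the block. The block raised calls over all genes too, to 1093 lower and 1182 higher in place of 931 and 1005. The medians of complexes II, III, IV and V stayed below 0 under each of the 16 other settings tried. Leaving out the variance trend or adding the replicate block cannot alter a fitted change, so these settings are no check on the medians. Differences between complexes were not tested, and they move with signal level. Genes with a mean signal over 8000 numbered 0 in complex II, 1 in complex III, 6 in complex IV and 5 in complex V. Of the 13 genes over 8000, cytochrome c included, 2 passed, with a median change of -0.30. Of the 28 genes with a mean signal between 2000 and 8000, 22 passed, with a median of -0.64. Over all genes tested, 9.09% of those over 8000 and 20.2% of those between 2000 and 8000 were called lower, with medians of -0.06 and 0.01. Between 2000 and 8000 the counts were 4 of 4 in complex II, 8 of 8 in complex III, 2 of 3 in complex IV and 7 of 12 in complex V. Over 8000 they were 0 of 1 in complex III, 2 of 6 in complex IV and 0 of 5 in complex V. The 5 tested members with a mean signal up to 2000 (Cox6a2, Cox6b2, Cox7a1, Cox7c and Cox8c) were all in complex IV. Of these only Cox7a1 passed, and their median was -0.05. They count in the complex IV share and median above, and the share called among all genes that dim was not computed. The part of signal level in the difference between complexes was not tested.

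Probe sets of a single gene did not always give the same call. Of 25 genes with several tested probe sets, 14 had probe sets that differed in passing. For 9 of these (Atp5a1, Atp5h, Atp5j2, Atp5pb, Cox5a, Cox6a1, Cox7a2l, Cycs and Uqcrb) the brightest probe set did not pass while a dimmer one fell, and for Atp5o, Cox5b, Cox6c, Sdhd and Uqcrq the brightest fell while a dimmer one did not pass. Cox5a, a subunit of complex IV, is of the first kind. Its brightest probe set read 10269 and 11939 in wild-type and 10429 and 10791 in deficient cultures, with a change of -0.06 (SE 0.12). The next read 7934 and 9356 against 8452 and 7892, with overlapping groups and a change of -0.08 (SE 0.12, limma adjusted p = 0.689). Only the dimmest fell. It read 7330 and 8538 against 5806 and 5674.5, with a change of -0.46 (SE 0.11, limma adjusted p = 0.0192). Counting a gene where any of its probe sets fell gave 34 genes in place of 25. This rule can only add genes to the count, and its share over all genes was not computed. A probe set with a value above 0 stood beside a falling one in 2 genes, Atp5o (0.079) and Uqcrq (0.22, near the lower signal limit), and neither of these passed.

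**Figure D2:**
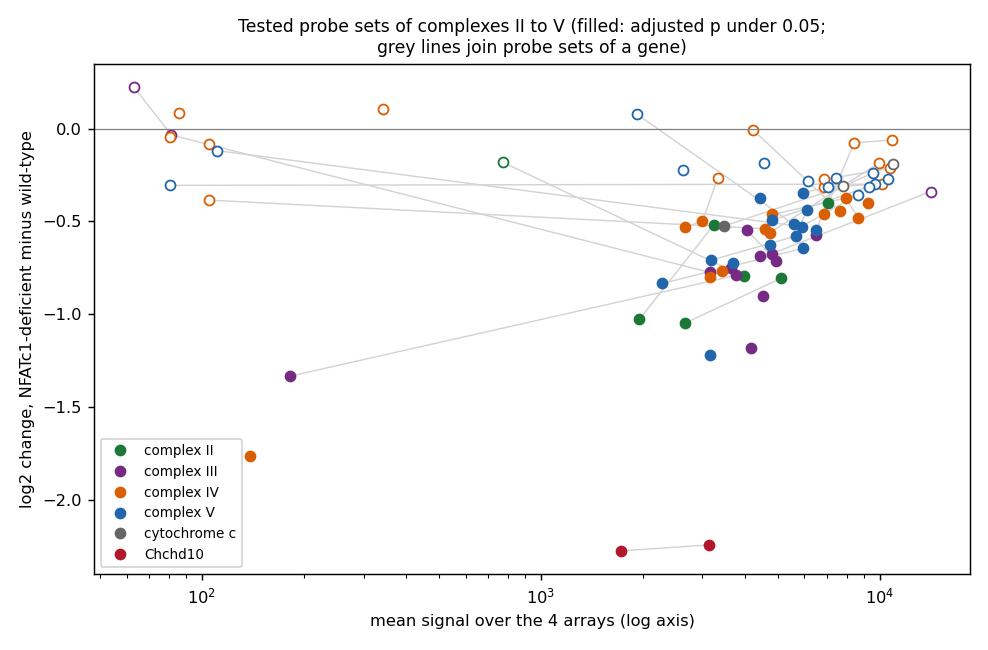
Log2 change (y axis, log2 of signal + 23.3) against mean signal over the 4 arrays (x axis, log scale) for the 80 tested probe sets. Grey lines join probe sets of one gene, and filled points passed at an adjusted p under 0.05. Of the 80 probe sets 47 were lower and 0 higher (11.4% and 12.8% of all tested probe sets), and both Chchd10 probe sets, at -2.24 and -2.27, lie lowest.

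Chchd10 fell most of all. It encodes a small protein with paired cysteine motifs that sits at the inner membrane folds, where it is known from inherited diseases of muscle and motor neurons. Its brighter probe set read 4766 and 5606 on the wild-type arrays and 1023 and 1131 on the deficient arrays. The groups lay far apart, with 20.8% of the wild-type mean left, a log2 change of -2.24 (SE 0.12, limma adjusted p = 5.48e-05). The dimmer probe set read 2810 and 2906 against 480 and 683, a change of -2.27 (SE 0.16, limma adjusted p = 0.000129). Both probe sets end in _s_at, a kind that can match several transcripts.

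Cox7a1 had the second largest fall. It encodes the heart and skeletal muscle isoform of a small complex IV subunit, whose common isoform is Cox7a2. Cox7a1 read 221 and 232 in wild-type and 39.1 and 63.5 in deficient cultures. Its deficient mean of 51.3 ± 17.3 was 22.6% of the wild-type mean of 227 ± 7.85 (SD, n = 2), with a log2 change of -1.76 (SE 0.25, limma adjusted p = 0.00198). These signals are low for the array, and the pseudocount of 23.3 makes the log2 value smaller than the ratio of means, which was 4.42. The deficient mean lay under 61.95, the level for testing, so the gene passed that filter only through its wild-type signals. The size of its fall, and with it its rank, is therefore uncertain. Of 7 skeletal or heart muscle markers Ckm and Des were bright enough to test and neither passed, and Myh1, Myh6, Tnnt2 and Tnnt3 read at or under 61.95 on all arrays. Acta1, not tested, read 16.7 and 40.4 in wild-type and 90.8 and 86.4 in deficient cultures. The summed signal of the 7 markers was 165 and 272 in wild-type and 238.5 and 359 in deficient cultures. Their part in the Cox7a1 result was not tested.

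**Figure D3:**
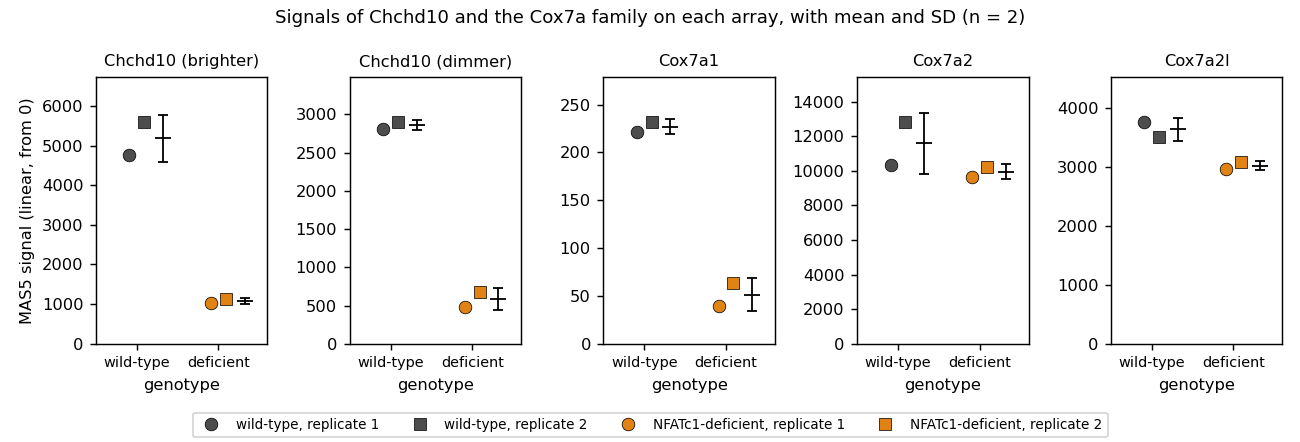
MAS5 signal (y axes, linear from 0, each panel with its own scale) on each of the 4 arrays by genotype (x axes) for both Chchd10 probe sets and the brightest probe set of Cox7a1, Cox7a2 and Cox7a2l, with mean and SD (n = 2). The deficient arrays lie near 1077 against 5186 for the brighter Chchd10 probe set and near 51.3 against 227 for Cox7a1, and closer to the wild-type arrays for Cox7a2 and Cox7a2l.

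The bases around the start sites of the members were searched for the strings of regulators known from respiratory genes and for an NFAT core. RefSeq promoters (GRCm38.p6, 250 bases before to 50 after the start) were at hand for 36 of the 48 genes, 39 promoters in all. The stretches shown are those of the pair with the largest falls, of Uqcrh, with the largest fall in complex III, and of Sdha, where NRF1 strings repeat. Each runs 5′ to 3′ on the strand of the gene and ends at the base before the start. The stretches of Uqcrh and Sdha were shortened at their far ends, where another gene begins. Capitals mark a match on either strand to one of the strings named after the sequences.
Chchd10, chr10:75932880-75933129, plus strand: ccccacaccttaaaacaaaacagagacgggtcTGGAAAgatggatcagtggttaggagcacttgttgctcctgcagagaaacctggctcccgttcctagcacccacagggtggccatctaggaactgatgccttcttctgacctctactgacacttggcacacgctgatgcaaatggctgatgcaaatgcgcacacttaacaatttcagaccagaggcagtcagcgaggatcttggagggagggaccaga
Cox7a1, chr7:30183921-30184170, plus strand: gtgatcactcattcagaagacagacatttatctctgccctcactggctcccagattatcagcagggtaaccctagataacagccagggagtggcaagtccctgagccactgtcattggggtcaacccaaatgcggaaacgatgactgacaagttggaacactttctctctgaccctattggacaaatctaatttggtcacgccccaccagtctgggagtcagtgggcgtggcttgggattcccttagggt
Uqcrh, chr4:116075071-116075268, minus strand: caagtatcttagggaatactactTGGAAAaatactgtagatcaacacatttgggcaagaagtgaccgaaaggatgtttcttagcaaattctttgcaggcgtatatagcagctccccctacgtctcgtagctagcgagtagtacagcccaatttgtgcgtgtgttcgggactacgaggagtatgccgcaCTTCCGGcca
Sdha, chr13:74350241-74350316, minus strand: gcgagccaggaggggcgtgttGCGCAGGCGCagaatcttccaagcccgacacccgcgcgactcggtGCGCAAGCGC

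The strings were AAGGTCA (the core site of ERR and other nuclear receptors), the NRF1 consensus, a palindrome-like GC-rich string, CCGGAAG (ETS factors such as GABP), AAGATGGC (YY1) and TGGAAA (NFAT core), each read on both strands. The ETS and NFAT strings share GGAA but cannot match at the same place. The ETS string was in 33.3% of the 39 promoters and in 8.86% of all 32851 promoters of the table, and the NRF1 string in 25.6% and 4.60%. The ERR string was in 12.8% against 4.72%, the YY1 string in 7.69% against 2.75% and the NFAT core in 15.4% against 21.4%. Among genes that fell, 8 of 18 with a promoter held the ETS string, 5 held the NRF1 string and 2, Chchd10 and Uqcrh, held the NFAT core. Among genes that did not pass, 5 of 17 held the ETS string, 5 the NRF1 string and 4 the NFAT core. Cox7a1 held none of the 5 strings in its window. In Sdha the capitals are 2 of 3 NRF1 matches, and in Uqcrh they are the NFAT core and, next to the start, the ETS string on the opposite strand. All promoters of the table were counted whatever the signal of their genes, so the members were not set against genes of like signal. The shares are descriptions with no test, a match is not a binding site, and the series measured no binding.

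All 4 subunits of complex II fell. Sdha, the flavoprotein that oxidises succinate, read 6188 and 6836.5 in wild-type and 3686 and 3732 in deficient cultures. Its deficient signals were alike and 57.0% of the wild-type mean, a change of -0.81 (SE 0.10, limma adjusted p = 0.00126), and its dimmer probe set changed by -1.05. Sdhd, one of the membrane anchors, read 5052 and 5057 against 2863 and 2940, a change of -0.80 (SE 0.10, limma adjusted p = 0.00104). A dimmer Sdhd probe set, at 888.5 and 756 against 741 and 700, did not pass (-0.18, SE 0.13). Sdhc, the other anchor, read 3683 and 3956 against 2686 and 2630, a change of -0.52 (SE 0.10, limma adjusted p = 0.00768). Sdhb, the iron-sulphur subunit between the flavoprotein and the anchors, had the smallest fall. It read 7641.5 and 8392 against 6030 and 6092, a change of -0.40 (SE 0.10, limma adjusted p = 0.0250). Without NFATc1-deficient replicate 1 Sdhb had an adjusted p of 0.209, without deficient replicate 2 of 0.163, and with median scaling of 0.308. With median scaling Sdhc also did not pass (adjusted p = 0.0897).

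Complex III fell nearly throughout. Uqcrh, the hinge subunit that helps cytochrome c dock, fell most, from 5765 and 5851 in wild-type to 2651 and 2443 in deficient cultures. Replicates of each genotype were close, with 43.8% of the wild-type mean left and a change of -1.18 (SE 0.10, limma adjusted p = 0.000241). Uqcrfs1, the Rieske iron-sulphur protein and a catalytic subunit, read 5353 and 6480 against 3170 and 3122, a change of -0.90 (SE 0.12, limma adjusted p = 0.00136). The small subunit Uqcr10 read 4229 and 5371 against 2776 and 2717, a change of -0.79 (SE 0.13, limma adjusted p = 0.00340). For Uqcrfs1 and Uqcr10 the wild-type arrays stood apart from each other more than the deficient arrays did, and the groups did not overlap. Cyc1, the cytochrome c1 that hands electrons to cytochrome c, read 7625 and 7926.5 against 4939 and 5531, a change of -0.57 (SE 0.11, limma adjusted p = 0.00637). Without NFATc1-deficient replicate 1 Cyc1 had an adjusted p of 0.107, and with median scaling of 0.101.

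The core proteins Uqcrc1 (-0.69) and Uqcrc2 (-0.71) and the small subunits Uqcrq (-0.77) and Uqcr11 (-0.75) also fell, to between 58.2% and 61.9% of the wild-type mean. Uqcrb was the exception at its brightest probe set, which read 14234 and 17419 against 12384 and 12508, a change of -0.34 (SE 0.13, adjusted p = 0.0837). Its dimmer probe set read 5258 and 6626 against 3879 and 3520 and fell by 0.67 on the log2 scale (SE 0.13, limma adjusted p = 0.00748). For Uqcrq, 2 further tested probe sets near the lower signal limit did not pass.

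**Figure D4:**
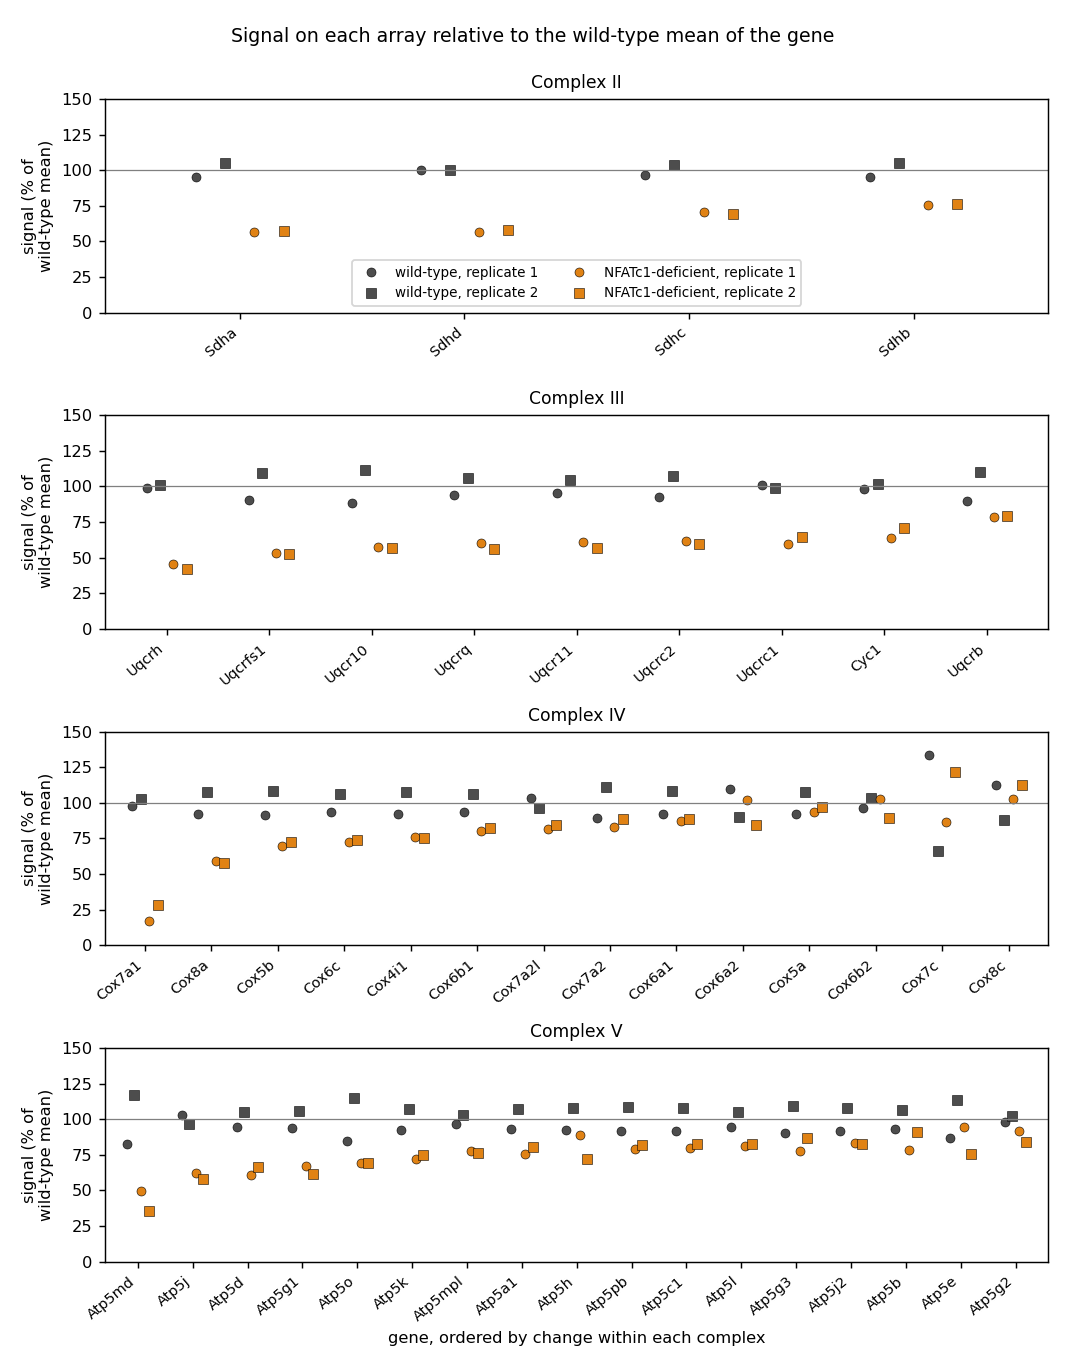
Signal on each array as a percentage of the wild-type mean of the gene (y axes, linear from 0) for the tested genes of complexes II, III, IV and V (x axes, genes in order of change), grey for wild-type and orange for NFATc1-deficient, circles for replicate 1 and squares for replicate 2. In complexes II and III every orange point lies below every grey point of its gene, and the genes that overlap are in complex IV (Cox6a2, Cox5a, Cox6b2, Cox7c and Cox8c) and complex V (Atp5e).

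Complex IV has several subunits with a common isoform and isoforms restricted to muscle, lung or testis, and 2 of 5 common isoforms passed, Cox8a and Cox4i1. Of all genes tested 11.9% were called lower. Cox8a, of subunit 8, read 3989 and 4662 in wild-type and 2564 and 2486 in deficient cultures, a change of -0.77 (SE 0.11, limma adjusted p = 0.00214), with -0.80 at a second probe set. Cox8c, the testis isoform, read 370 and 289 against 338 and 371, with overlapping groups and a change of 0.11 (SE 0.17, adjusted p = 0.707). Cox8b, the muscle isoform, was under the level for testing, at 25.9 and 2.7 against 47.2 and 9.0.

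Among the Cox7a genes only Cox7a1 passed at its brightest probe set. Cox7a2 read 10325 and 12846 in wild-type and 9629 and 10247 in deficient cultures. The groups did not overlap, but the wild-type arrays differed from each other by more than the deficient arrays lay below the lower of them, and the change of -0.21 did not pass (SE 0.13, adjusted p = 0.275). A dimmer Cox7a2 probe set had -0.27 and did not pass either. Cox7a2l, of which C57BL/6 mice are known to carry a shortened form, read 3771 and 3503 against 2971 and 3076.5, a change of -0.26 (SE 0.10, adjusted p = 0.0975). Both of its other probe sets fell, by 0.50 and 0.53 on the log2 scale (adjusted p of 0.00929 and 0.0109). The difference between the changes of Cox7a1 and Cox7a2 was not tested.

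Cox4i1, the common isoform of subunit 4, read 9734 and 11367 in wild-type and 8013 and 7939 in deficient cultures, a change of -0.40 (SE 0.11, limma adjusted p = 0.0355). Its lung isoform Cox4i2 was under the level for testing, at 59.5 and 56.8 against 36.9 and 35.1. Cox6a1 read 9771 and 11491 against 9258 and 9394, a change of -0.18 (SE 0.12, adjusted p = 0.296), while its dimmer probe set fell by 0.56 on the log2 scale (adjusted p = 0.00708). The muscle isoform Cox6a2 stayed low in both genotypes, at 120 and 98.3 against 111 and 91.8, with overlapping groups. Cox6b1 read 10521 and 11993.5 against 9007 and 9252.5, with no overlap and a change of -0.30 (SE 0.11, adjusted p = 0.0868). Its testis isoform Cox6b2 was likewise low, at 79.4 and 85.2 against 84.6 and 73.6.

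The subunits with a single gene were split. Cox5b, which binds zinc, read 9226 and 10976 in wild-type and 7068 and 7339 in deficient cultures, a change of -0.48 (SE 0.12, limma adjusted p = 0.0193), and 3 of its other tested probe sets also fell. Cox6c fell by 0.45 on the log2 scale at its brightest probe set (SE 0.11, limma adjusted p = 0.0193), whereas another had -0.01 and did not pass. Cox7c was represented only by dim probe sets, the brighter of which read 112 and 55.6 against 72.3 and 102. Its wild-type arrays differed by more than the genotypes did, so nothing can be read about its direction. When NFATc1-deficient replicate 1 was left out, limma gave an adjusted p of 0.188 for Cox5b, 0.189 for Cox6c and 0.249 for Cox4i1, and when deficient replicate 2 was left out, 0.116, 0.126 and 0.229. With median scaling Cox5b, Cox6c and Cox4i1 did not pass either, and Cox4i1 had an adjusted p of 0.0553 without wild-type replicate 2.

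Complex V has a catalytic F1 head, a ring of c subunits that turns in the membrane, a peripheral stalk that holds the head still, and small membrane subunits. In the head 1 of 5 genes fell, in the ring 1 of 3, in the stalk 2 of 4 and among the membrane subunits 3 of 5. Of all genes tested 11.9% were called lower, and 20.2% of those with a mean signal between 2000 and 8000. These groups are small, and differences between them were not tested. The counts also depend on the probe set. A dimmer one fell for Atp5a1 in the head, Atp5h and Atp5pb in the stalk and Atp5j2 in the membrane, and a dimmer one of Atp5o did not pass. The largest fall was in Atp5md, a small membrane subunit linked to the pairing of ATP synthases. It read 3659 and 5183 in wild-type and 2199 and 1567.5 in deficient cultures, a change of -1.22 (SE 0.19, limma adjusted p = 0.00310). The arrays of each genotype differed widely, with a difference of -0.73 for replicate 1 and -1.71 for replicate 2, and the groups did not overlap. The other membrane subunits that fell were Atp5k (-0.44) and Atp5mpl (-0.37), while Atp5l (-0.28, adjusted p = 0.0865) and Atp5j2 (-0.27, adjusted p = 0.130) did not pass. A dimmer Atp5j2 probe set fell by 0.55 on the log2 scale.

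In the stalk, Atp5j (coupling factor 6) fell from 4756 and 4475 in wild-type to 2882 and 2684 in deficient cultures, a change of -0.73 (SE 0.10, limma adjusted p = 0.00187). Both genotypes were tight for this gene, and the changes between same-numbered arrays were -0.72 and -0.73. Atp5o, the subunit that joins stalk and head, changed by -0.52 (SE 0.14, limma adjusted p = 0.0325). Atp5pb (-0.31, adjusted p = 0.0889) and Atp5h (-0.32, adjusted p = 0.123) did not pass at their brightest probe sets, and a dimmer one of each fell.

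In the head, Atp5d, the delta subunit of the central stalk, fell from 6883 and 7642 to 4433 and 4838.5, a change of -0.64 (SE 0.11, limma adjusted p = 0.00417). The catalytic beta subunit Atp5b (-0.24, adjusted p = 0.200), the alpha subunit Atp5a1 (-0.36, adjusted p = 0.0528) and the gamma subunit Atp5c1 (-0.30, adjusted p = 0.0999) did not pass, though both deficient arrays lay below both wild-type arrays for each. Atp5e read 2463 and 3217 against 2691 and 2149, with overlapping groups and a change of -0.23 (SE 0.16, adjusted p = 0.342). It was the only complex V gene whose groups overlapped.

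The ring is made of a protein that 3 genes encode, which differ in the targeting part that is cut off on import. Atp5g1 fell from 5419 and 6106 in wild-type to 3880.5 and 3554 in deficient cultures, a change of -0.63 (SE 0.11, limma adjusted p = 0.00483). Atp5g2 read 4758 and 4954 against 4449.5 and 4096, a change of -0.18 (SE 0.10, adjusted p = 0.238). Atp5g3 read 10473 and 12708 against 9007 and 10105, a change of -0.27 (SE 0.13, adjusted p = 0.162). For each of the 3 genes both deficient arrays lay below both wild-type arrays, and differences between them were not tested. Without NFATc1-deficient replicate 1, Atp5d (adjusted p = 0.0581), Atp5k (0.178), Atp5mpl (0.159) and Atp5o (0.133) did not pass, and without deficient replicate 2 Atp5k (0.109), Atp5mpl (0.157) and Atp5o (0.116) did not. With median scaling these 4 genes did not pass either, and without wild-type replicate 2 Atp5mpl (0.0593) and Atp5o (0.0799) did not.

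Cytochrome c, the carrier between complexes III and IV that also triggers caspases when released, did not pass at its brightest probe set. Cycs read 10463 and 12942 in wild-type and 10718.5 and 9704 in deficient cultures, with overlapping groups and a change of -0.19 (SE 0.13, adjusted p = 0.339). Its dimmest probe set read 4019 and 4168.5 against 3003 and 2680 and fell by 0.53 on the log2 scale (SE 0.11, limma adjusted p = 0.00891). The third had -0.31 (adjusted p = 0.0782).

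Factors that build complexes II to V were called lower at a share near that of all genes tested (11.9%), but most of their changes lay below 0. The difference from the subunits was not tested. Of 30 tested assembly and insertion factors 5 fell (16.7%), 0 rose and 25 did not pass, with a median of -0.22. They were Oxa1l (-0.87, adjusted p = 0.00175), which inserts proteins into the inner membrane, the cristae protein Immt (-0.57), the haem lyase Hccs (-0.54), Coa5 (-0.54) and Higd2a (-0.53). The highest values were in Cox19 (0.30, adjusted p = 0.163), a copper-handling factor, and Atpif1 (0.27, adjusted p = 0.153), the inhibitor of ATP synthase, and neither passed. Of the 30 factors 24 had a change below 0 and 6 above. Both deficient arrays lay below both wild-type arrays for 20, against 29.7% of all genes tested, and above for 3, against 34.3%. For complex I, whose genes were chosen by the Nduf prefix, 25 of 34 fell, with a median of -0.48, and differences from complexes II to V were not tested.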

How the data were processed

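The deposited values are probe set intensities on a linear scale that the authors made with MAS5, per the submitters' processing notes. MAS5 scales each array by 1 factor, and the trimmed means of the 4 arrays lay between 500.186 and 500.211. Detection calls and the MAS5 version are not given in the sources used here, and the number of arrays limits precision. Genes were named from the platform annotation, and 691 probe sets with several symbols were not used.

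After 64 control probe sets were set aside, 13577 probe sets passed a minimum mean signal of 61.95 (percentile 40). Their log2(signal + 23.3), with the lower quartile of the table as pseudocount, entered limma 3.58.1 in R 4.3.3 (lmFit, then eBayes with its trend option), and changes are deficient minus wild-type. The tests were two-sided, with p-values adjusted by the Benjamini-Hochberg method over all tested probe sets at 0.05. For 2 against 2 arrays a two-sided exact permutation p cannot fall below 0.333. The smaller p-values of the limma fit rest on variances that eBayes shares across probe sets. Each adjusted p in the text comes from this fit, except where another setting is named, and then from limma under that setting. Fold values are ratios of mean signals, and log2 changes understate those of dim genes. The brightest tested probe set stood for a gene. Of these, 24 end in _s_at, _x_at or _a_at and can match several transcripts, among them processed copies. Of the 48 genes, Cox4i2 and Cox8b were not tested.

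Signals on every array are given for complex II, Cyc1, Cycs and Chchd10, for the 3 lowest and 2 highest changes in each of complexes III, IV and V, and for the isoform families. Cox5a was chosen after its values were seen, as were the signal levels of 2000 and 8000. The members, lists and rules were chosen with earlier results of these data known. The script was checked on simulated data. The design text calls the arrays biological replicates. Alternatives changed the probe set rule, array scaling, pseudocount (1 or 100), filter, variance trend or replicate block, or left out 1 array.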

Additional observations from a re-analysis of the deposited data

Results flagged for a closer look

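The 18 probe sets of the hybridisation controls, bacterial and phage transcripts added in fixed amounts, lie outside the comparison of mouse genes. They drew attention because each deficient array read above each wild-type array, with a mean log2 difference of 0.30 (deficient minus wild-type). Their mean log2 signals were 9.27 and 9.48 on the wild-type arrays and 9.52 and 9.84 on the deficient arrays. The median change of the complex II to V genes was -0.40 with the authors' scaling and -0.70 with the arrays scaled to these controls. What moved the controls was not tested.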

How the results depend on the processing

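Of the 25 genes that fell, 13 kept the call under every setting run for them: Chchd10, Cox7a1, Cox8a, Sdha, Uqcrh, Uqcrfs1, Uqcrc1, Uqcrc2, Uqcr10, Uqcr11, Atp5md, Atp5j and Atp5g1. Of the 13, Chchd10, Uqcr10, Uqcrc1, Uqcrc2 and Atp5g1 had only tested probe sets ending in _s_at, _x_at or _a_at. These genes were therefore not run in the setting without such probe sets. Cox7a1 was too dim for the filter at percentile 60 and was not run there. The count of 0 higher genes held in all 16 settings. Without 1 array each, the lower genes numbered 16 to 39 in all, 3 to 4 in complex II, 7 to 9 in complex III, 2 to 8 in complex IV and 3 to 16 in complex V, where a lone array was taken to vary like the other group. Median scaling gave 15 lower genes in all, 2 in complex II, 2 in complex IV and 3 in complex V. Without the variance trend there were 2 in complex II, 2 in complex IV and 4 in complex V, and without the filter 2 and 4 in complexes IV and V. Without _s_at, _x_at and _a_at probe sets, complex III had 5, of fewer genes tested. Complex V rose to 11 with quantile scaling and to 15 with scaling to the hybridisation controls, which moved the median of all members to -0.70. At their dimmest probe sets, a choice made after seeing the data, the log2 change of Atp5o was 0.079 and that of Uqcrq 0.22, so both turned in sign, and neither passed. Same-numbered pools were alike in sex and number of mice, but no label ties them to a shared batch, and the genotypes' replicate differences had a correlation of 0.13. With the replicate block, complex V had 11 lower genes and the members 31 in all, and all genes tested had 1093 lower and 1182 higher. The member calls gained were Uqcrb (limma adjusted p = 0.0276), Cox6b1 (0.0392), Atp5a1 (0.0161), Atp5c1 (0.0412), Atp5l (0.0492) and Atp5pb (0.0343), and none was lost. Over all genes, 931 lower and 1005 higher became 646 and 568 without the variance trend and 576 and 490 without NFATc1-deficient replicate 1. The cause of these shifts was not tested. Signal over background is unknown without detection calls, which limits Cox7c and the restricted isoforms, Cox7a1 among them, most.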
